A study of Sus scrofa with 8 samples.

Results

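Of 10 genes chosen as liver-type plasma carrier proteins, 9 could be followed in islets of neonatal pigs, through 11 probe sets of the Affymetrix porcine GeneChip. A probe set is a group of short oligonucleotides for the same transcript, and its brightness is given as a single intensity. The members were GC, TTR, RBP2, RBP4, ALB, TF, AHSG, AMBP, HP and CP, taken as every probe set whose array annotation gives that symbol and no other, out of 6765 symbols in all. CP had no such probe set and is not analysed here. The pigs were male Duroc/Large white crosses, 4 of 3 days of age and 4 of 7 days, with 1 array per pig. The pancreas of each was digested with collagenase, and the islets were then kept in culture for 7 days, so the ages are those of the donor pigs. The Ham's F10 medium held glucose, isobutylmethylxanthine, nicotinamide and bovine serum albumin and was the same at both ages. The preparations are mixtures that hold duct, exocrine, stromal and other cells beside the endocrine cells. In such bulk RNA, fewer cells of a type and less RNA per cell cannot be told apart.

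Plasma carrier proteins bind small hydrophobic ligands, hormones or metals and keep them soluble in the circulation. Hepatocytes secrete most of them, but pancreatic islets also make some: transthyretin (TTR) is a known product of islet endocrine cells, and the vitamin D-binding protein GC is a known product of alpha cells. TTR carries thyroxine and binds retinol-binding protein 4 (RBP4), which carries retinol. Albumin (ALB) carries fatty acids and many other ligands, transferrin (TF) carries iron, ceruloplasmin (CP) carries copper and haptoglobin (HP) captures free haemoglobin. AHSG, or fetuin-A, binds calcium phosphate, and AMBP is the precursor of alpha-1-microglobulin and of the protease inhibitor bikunin. RBP2 is the exception in the list, since it is an intracellular retinol-binding protein of the gut epithelium and not a plasma protein.

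GC, TTR and RBP2 were higher in the arrays with the deposited label 7-day-old, here 7-day arrays, than in those with the label 3-day-old, here 3-day arrays. A single probe set listed as TF was lower. The study's supplementary lists, which were chosen on these samples and are no independent evidence, hold GC and TTR as lower at 7 days and this TF probe set, under the name ICA, as higher. Of the genes named below they hold PCSK2 and CITED1 as lower and KNG1, PECAM1 and CDH5 as higher. Of the markers counted below as lower but not named there, they hold DCN, MMP2 and CPB1 as higher. For each of these the direction from the deposited labels opposes the study's, and whether the labels or the lists are exchanged is not settled here, so every direction below is that of the deposited labels. Of the 11 probe sets, 10 passed the filter on dim probe sets, which asks for the array's 20th percentile (26.4 to 31.3) in at least 1 array, and HP did not. In limma (two-sided, adjusted by Benjamini-Hochberg over all 21574 probe sets tested, threshold 0.05), 3 of the 10 were higher and 1 was lower. Of all probe sets tested, 10.7% passed, 5.21% higher and 5.47% lower. In the same 4 member probe sets the labels did not overlap, 3 higher and 1 lower, against 21.2% of all probe sets tested, 10.9% higher and 10.3% lower. RBP2 passed the filter only through the 7-day arrays, and GC and TTR were known from earlier results when the members were chosen, so these shares are a description only. The median log2 difference of the 10 probe sets was 0.02, with 5 above 0 and 5 below. The median size of the difference without its sign was 1.08 on the log2 scale, against 0.27 over all probe sets tested. The related lists below use 1 probe set per gene, the brightest. By that measure 3 of 8 member genes were higher and 0 lower (1 at an unadjusted p under 0.05 in limma), with a median log2 difference of 0.71. That measure leaves out the TF probe set that was lower.

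**Figure D1:**
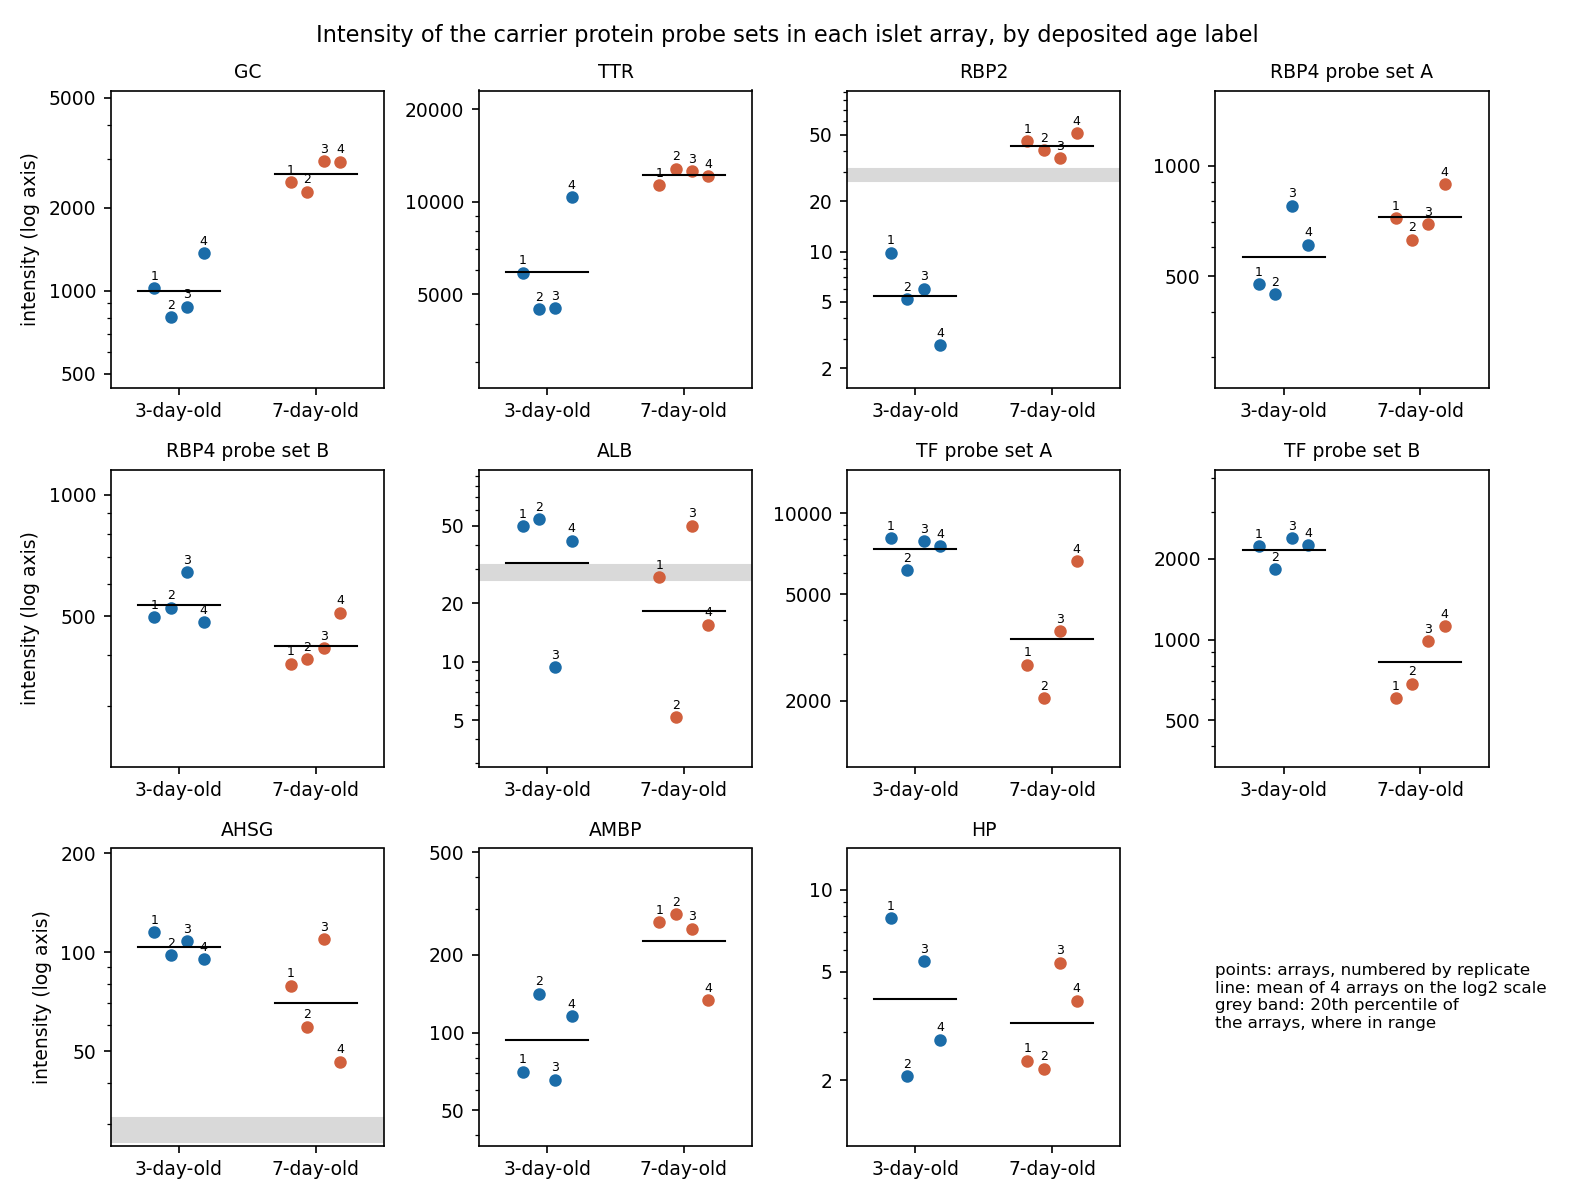
Intensity (vertical axis, logarithmic, a separate scale in each panel) of the 11 carrier protein probe sets in the 8 arrays, with the mean of each label on the log2 scale as a line and the range of the arrays' 20th percentiles in grey. GC, TTR and RBP2 lie higher in all 4 7-day arrays, TF probe set B lies lower in all 4, and the labels overlap in the other panels.

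The arrays were alike in overall level, with medians between 171.6 and 178.5, and no pair shared more than 1 identical value. The number of arrays limits the precision, and the median standard error of a log2 difference was 0.17. The fourth 7-day array was the highest or lowest of its label in 7 of the 10 tested member probe sets. Each label has 4 arrays for these 2 places, so the count does not set this array apart from the others, which were not counted. The fourth 3-day array was the highest of its label for GC and TTR. Without the fourth 7-day array 3 member probe sets were higher and 2 lower, and without the fourth 3-day array 3 were higher and 1 lower.

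GC, the vitamin D carrier (probe set Ssc.2992.1.A1_at, gene 448964), had narrow and separate ranges in the labels. Its intensity was 1022, 802, 876 and 1371 in 3-day arrays 1 to 4 and 2480.5, 2286, 2956 and 2939.6 in 7-day arrays 1 to 4. The lowest 7-day array thus lay well above the highest 3-day array. The means were 1018 ± 252 and 2665.5 ± 336 (SD, n = 4 each), a 2.66-fold difference, or 1.41 on the log2 scale (standard error 0.184, adjusted p = 0.00699 from limma). GC passed with any of the 8 arrays left out, at a log2 difference of 1.31 to 1.56 and an adjusted p of 0.00762 to 0.0253.

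TTR, the thyroxine carrier (Ssc.640.1.S1_at, gene 397419), was bright in every array and 2.07-fold higher in the 7-day arrays. Its intensity was 5870.0, 4459, 4491 and 10331 in 3-day arrays 1 to 4 and 11331, 12803, 12583 and 12131 in 7-day arrays 1 to 4. The 7-day arrays were almost level with each other, with a coefficient of variation of 5.33%, against 44.1% in the 3-day arrays, the fourth of which came near the other label. The labels did not overlap. The difference was 1.05 on the log2 scale (standard error 0.264, adjusted p = 0.0458 from limma), which is close to the threshold. Without the fourth 3-day array it was 1.32 with an adjusted p of 0.00795, and without any other array TTR did not pass (adjusted p from 0.0873 to 0.107 in 7 fits).

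RBP4, the retinol carrier that circulates bound to TTR (gene 397124), was read by 2 probe sets with differences of opposite sign, and neither passed. Probe set A (Ssc.10930.1.A1_at) had intensities of 475.5, 447, 777 and 608 in 3-day arrays 1 to 4 and of 720.3, 628, 691 and 889.8 in 7-day arrays 1 to 4. Probe set B (Ssc.15695.1.S1_at) had 497, 524.5, 642 and 484 in the first label and 381, 391.5, 417 and 509.8 in the second. The labels overlapped in both. The log2 difference was 0.37 for probe set A (adjusted p = 0.278 from limma) and -0.34 for probe set B (adjusted p = 0.154 from limma), with 95% intervals from -0.10 to 0.83 and from -0.65 to -0.02 before adjustment. Within each array, the log2 ratio of probe set A to probe set B lay between -0.23 and 0.33 in 3-day arrays and between 0.68 and 0.92 in 7-day arrays. This ratio was examined after the values were seen and was not tested. The sources used here do not say which part of the RBP4 transcript each probe set reads, so the direction of RBP4 is uncertain.

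**Figure D2:**
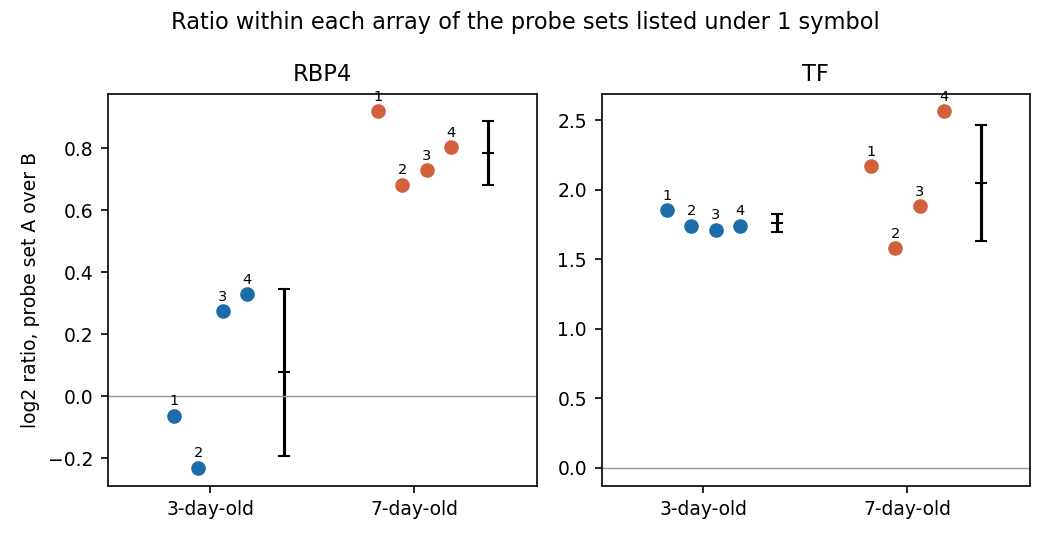
The log2 ratio of probe set A to probe set B within each array (vertical axis) for RBP4 and TF. Numbered points are the arrays of a label and the bars beside them their mean and SD. For RBP4 the 7-day arrays all lie above the 3-day arrays, and for TF the fourth 7-day array has the highest ratio, 2.57.

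RBP2, the intracellular retinol-binding protein (Ssc.16129.1.S1_at, gene 407611), was dim throughout. Its intensity was 9.83, 5.18, 5.995 and 2.76 in 3-day arrays 1 to 4 and 45.6, 40.4, 36.3 and 51.0 in 7-day arrays 1 to 4. All 4 3-day arrays lay under their 20th percentile and all 4 7-day arrays lay over it but under their median. The fitted log2 difference was 2.99 (standard error 0.355, adjusted p = 0.00594 from limma), and its size rests on values near background. An alternative added after the values were seen floored intensities at the 20th percentile of each array. In it the estimate for RBP2 was 1.42-fold higher in the 7-day arrays (log2 difference 0.50, standard error 0.116, adjusted p = 0.0250 from limma). Since RBP2 entered the test only through the arrays in which it was high, its p-values are a description and no support.

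The transferrin probe sets were bright and carry different gene identifiers. Probe set A (Ssc.4222.1.S1_at) is annotated to gene 396996 and probe set B (Ssc.16562.1.S1_at) to gene 396845. RefSeq (assembly Sscrofa11.1) names both genes TF, places them next to each other with 0 annotated genes between, and gives PICA as a synonym of the second. The porcine inhibitor of carbonic anhydrase, pICA, is a transferrin-like plasma protein. The study lists probe set B as ICA. No probe sequence was compared here, so whether either probe set also reads the other gene was not tested.

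TF probe set B fell by the deposited labels. Its intensity was 2232, 1834, 2394.5 and 2250.3 in 3-day arrays 1 to 4 and 605, 685, 986 and 1121 in 7-day arrays 1 to 4. No array of one label reached the range of the other. The means were 2178 ± 240.4 and 849 ± 244 (SD, n = 4 each), and the difference was -1.40 on the log2 scale (standard error 0.212, adjusted p = 0.0102 from limma). It passed with any 1 array left out, at an adjusted p of up to 0.0340.

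TF probe set A did not pass with all 8 arrays. Its intensity was 8078, 6133, 7851 and 7539.8 in 3-day arrays 1 to 4 and 2729, 2049, 3641 and 6637 in 7-day arrays 1 to 4. The labels overlapped through the fourth 7-day array alone, which exceeded the second 3-day array. The log2 difference was -1.11 (standard error 0.338, adjusted p = 0.0792 from limma), and without the fourth 7-day array it was -1.43 with an adjusted p of 0.0197. Without any other array it did not pass (adjusted p from 0.119 to 0.170 in 7 fits).

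Some markers of other cell types were also lower in the 7-day arrays. With each gene read by its brightest probe set, 12.2% of all 6545 genes tested passed, 5.03% higher and 7.15% lower, with a median log2 difference of -0.02. Of the fibroblast and stellate cell markers, 6 of 13 were lower in the 7-day arrays, with a median log2 difference of -0.74. Their summed intensity was 59661 to 78454 in 3-day arrays and 44333 to 50324 in 7-day arrays. SPARC (-0.29, adjusted p = 0.0594 from limma) and VIM (-0.44, adjusted p = 0.0637), the brightest of them, did not pass. Of the endothelial markers, 4 of 10 were lower, with a median of -1.025 and sums of 1779 to 2279 and 733.5 to 926. Among them were PECAM1 (-1.70, adjusted p = 0.00331 from limma) and CDH5 (-1.41, adjusted p = 0.0192), both proteins of endothelial junctions. Another, TIE1, reached the 20th percentile in the 3-day arrays only (50.4 to 70.3, against 2.74 to 9.67 in 7-day arrays). It entered the test only through the label in which it was high, so its call is a description.

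Of the duct markers 2 of 8 were lower, with sums of 39715 to 45006 and 37334 to 40378, and SPP1 (-0.15, adjusted p = 0.346 from limma) and EPCAM (-0.06, adjusted p = 0.694) did not pass. Of the acinar markers 1 of 7 was lower, with sums of 39426 to 48025 and 28962 to 44772.5, and CPA1 (-0.14, adjusted p = 0.663 from limma) and PRSS2 (-0.999, adjusted p = 0.106) did not pass. Of the macrophage markers 1 of 8 was lower, with sums of 654 to 1834 and 385.5 to 644. Their median log2 difference was -1.01, with 7 of the 8 below 0, and 5 were lower at an unadjusted p under 0.05 in limma. C1QC (-1.27, adjusted p = 0.0658 from limma) and AIF1 (-0.997, adjusted p = 0.196) did not pass. Of the erythroid markers 0 of 4 were called by limma or the methods' t-test, and at an unadjusted p under 0.05 1 was higher and 1 lower in limma. Their sums were 1262 to 1572 and 1564 to 1641.5, with HBB at 0.25 (adjusted p = 0.166) and HBM at -0.38 (adjusted p = 0.436). In these 6 lists 0 markers were called higher by limma or the methods' t-test, although the acinar markers CELA1 (0.79) and AMY2 (0.52) and the erythroid marker HBB were higher at an unadjusted p under 0.05 in limma. The other 2 probe sets of AMY2 had the opposite sign (-0.84, adjusted p = 0.0524, and -0.80, adjusted p = 0.0693, from limma). So had the other probe set of CELA1 (-0.11, adjusted p = 0.870 from limma). The median log2 difference was -0.24 in the duct list, -0.14 in the acinar list and -0.53 in the erythroid list. No tested marker was at 0 in any array. The part of these cell types in the difference of TF, GC, TTR and RBP2 was not tested.

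ALB and HP, which are among the most abundant proteins of plasma, were at or near background in these islets. The ALB intensity (Ssc.10439.1.S1_at, gene 396960) was 49.6, 54.1, 9.38 and 41.9 in 3-day arrays 1 to 4 and 27.2, 5.18, 50.1 and 15.5 in 7-day arrays 1 to 4. It reached the 20th percentile in 4 of the 8 arrays, 3 of them 3-day arrays. The labels overlapped over most of their range (log2 difference -0.82, standard error 0.816, 95% interval -2.72 to 1.08, adjusted p = 0.567 from limma). HP (Ssc.37.1.S1_at, gene 397061) lay between 2.07 and 7.87 in the 8 arrays, under the 20th percentile in each, and was not tested. A difference of either gene between the labels was not detectable at this signal.

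AMBP, the precursor of alpha-1-microglobulin and bikunin (Ssc.1894.1.S1_at, gene 397593), was brighter in 3 of the 4 7-day arrays than in any 3-day array, but did not pass. Its intensity was 70.5, 142, 65.6 and 116 in 3-day arrays 1 to 4 and 268, 287, 252 and 133.5 in 7-day arrays 1 to 4. The fourth 7-day array lay under the second 3-day array. The log2 difference was 1.27 (standard error 0.338, adjusted p = 0.0532 from limma), and without the fourth 7-day array it was 1.53 with an adjusted p of 0.0354. Without any other array AMBP did not pass (adjusted p from 0.0574 to 0.126 in 7 fits).

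AHSG, or fetuin-A (Ssc.7101.1.A1_at, gene 397585), lay under the median of every array and did not pass. Its intensity was 114.9, 97.8, 108 and 95.2 in 3-day arrays 1 to 4, a narrow range, and 79.1, 59.4, 109.7 and 46.4 in 7-day arrays 1 to 4. Of the latter, array 3 lay within the range of the other label and the other 3 lay under it. The log2 difference was -0.57 (standard error 0.253, adjusted p = 0.193 from limma), and without 7-day array 3 it was -0.79 (adjusted p = 0.0557).

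**Figure D3:**
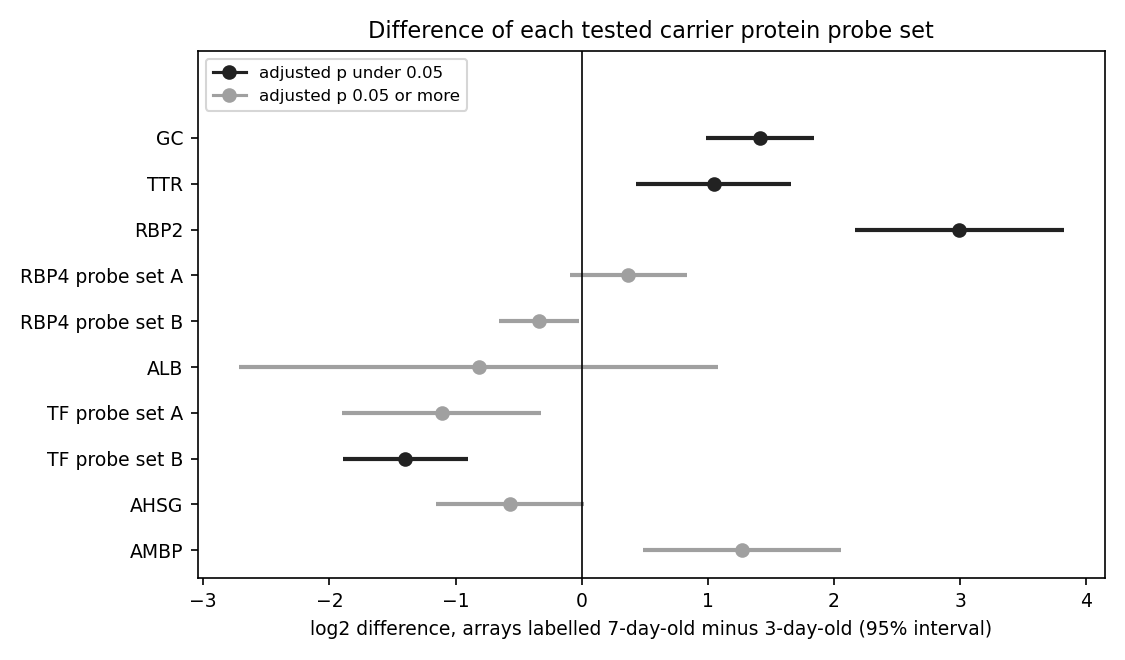
The log2 difference of the 10 tested member probe sets, 7-day minus 3-day (horizontal axis), with the 95% interval from limma before adjustment. Dark points are the 4 probe sets with an adjusted p under 0.05, and the widest interval is that of ALB, from -2.72 to 1.08.

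**Figure D4:**
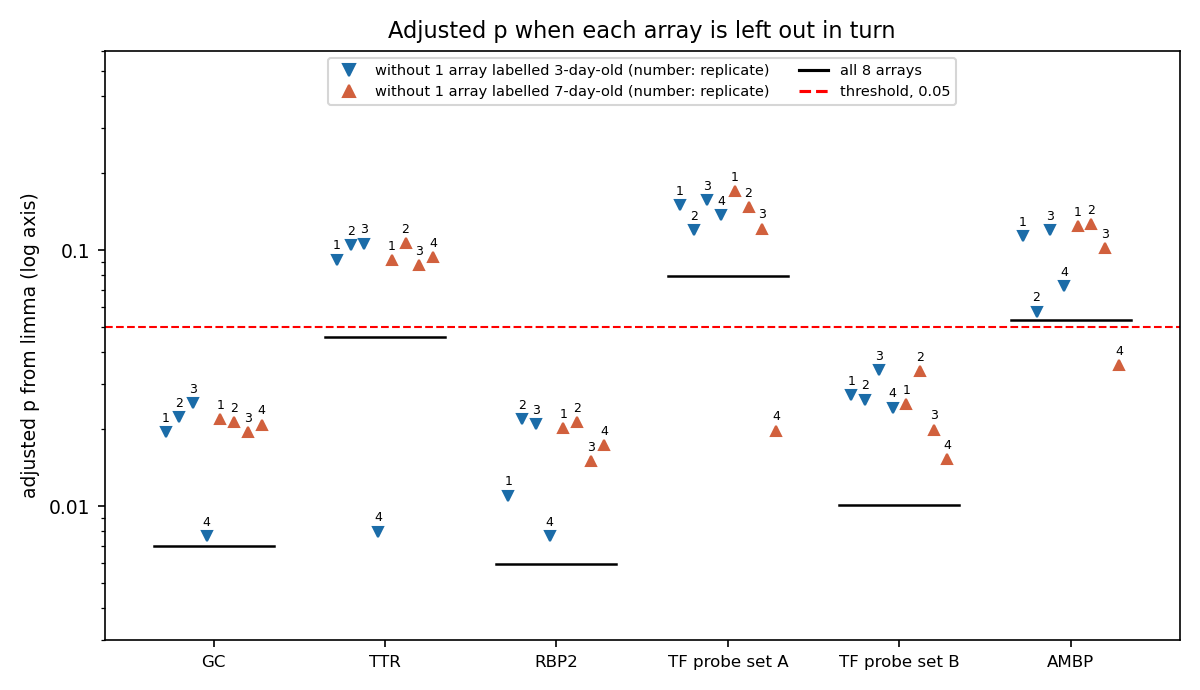
Adjusted p from limma (vertical axis, logarithmic) for 6 member probe sets when each array was left out in turn, numbered by replicate, with the value from all 8 arrays as a black line and the threshold as a dashed line. GC and TF probe set B stay under the threshold in all 8 fits, and so does RBP2, which entered only through the arrays in which it was high, whereas TTR is under it only without the fourth 3-day array and TF probe set A and AMBP only without the fourth 7-day array.

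Of the other plasma proteins of the liver, few passed. Again by the brightest probe set, 1 of 33 genes was higher and 2 were lower, with a median log2 difference of -0.23. KNG1, which encodes the kininogens from which bradykinin is cut, had a mean intensity of 434 ± 97.9 in 3-day arrays and 145 ± 48.7 in 7-day arrays (SD, n = 4 each). Its difference was -1.60 on the log2 scale (adjusted p = 0.0127 from limma), and it passed with any 1 array left out. Of its other 3 probe sets, 1 was lower (-0.77, adjusted p = 0.0433) and 2 did not pass. SERPING1, the inhibitor of the first complement component, fell by 0.89 on the log2 scale (adjusted p = 0.0181 from limma) and did not pass without the second 3-day array or the first 7-day array (adjusted p up to 0.0530). ITIH3, a heavy chain that is joined to bikunin, had a difference of 1.09 at intensities of 18.04 to 72.1 (adjusted p = 0.0454 from limma). It did not pass when any of the 8 arrays was left out, with an adjusted p of up to 0.111. ITIH3 reached the 20th percentile in 4 arrays only, all of them 7-day arrays. Like RBP2 it thus entered the test only through the label in which it was high, and its p-values are a description and no support. Its other 2 probe sets had differences of opposite sign and did not pass.

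Of 19 hepatocyte enzymes and receptors with a probe set, TAT, HPD, CYP7A1 and BHMT lay under the 20th percentile in every array, and 7 of the 15 tested reached it in all 8 arrays. Of the 15, 0 were higher by limma or the methods' t-test (1 at an unadjusted p under 0.05 in limma), and 2 were lower. PCK1, a gluconeogenic enzyme, had means of 163 ± 33.7 and 68.8 ± 19.97 in 3-day and 7-day arrays (SD, n = 4 each). It fell by 1.27 on the log2 scale (adjusted p = 0.0212 from limma) and did not pass without the second 3-day array or the first 7-day array (adjusted p up to 0.0598). UGT2B31, a glucuronosyltransferase, fell by 0.84 on the log2 scale (adjusted p = 0.0395 from limma) and, of the 8 fits that left out an array, passed only in the one without the fourth 3-day array.

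Receptors and enzymes that handle the carriers' ligands gave 1 call. The list held receptors of vitamin D, retinoids, thyroid hormone, transferrin and other carriers, enzymes of retinoid, vitamin D and thyroxine metabolism, and genes of iron storage and transport. Of 26 genes tested, 0 were higher by limma, also at an unadjusted p under 0.05, or by the methods' t-test, and 1 was lower. The one that fell was ALDH1A1, an aldehyde dehydrogenase that makes retinoic acid, with means of 2734 ± 263 and 1601 ± 159.6 in 3-day and 7-day arrays (SD, n = 4 each). It fell by 0.77 on the log2 scale (adjusted p = 0.00970 from limma), which held with any 1 array left out. Its second probe set was lower as well (-0.80, adjusted p = 0.00672). TFRC, the receptor for transferrin, differed by -0.03 on the log2 scale (adjusted p = 0.953), and the ferritin chain FTH1 by 0.01 (adjusted p = 0.974). The probe sets of the ferritin chain FTL disagreed, the brighter at 0.05 (adjusted p = 0.776) and the other lower at -1.11 (adjusted p = 0.0171). These last 3 genes were named for their ligands after their values were seen.

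Genes of the islet endocrine cells were set beside GC and TTR, which such cells are known to make. Of 8 alpha cell genes tested, 4 were higher and 2 were lower, with a median log2 difference of 0.43. Whether the listed genes are particular to alpha cells in these islets was not tested. PCSK2, a prohormone convertase, had means of 2961 ± 621 and 6289.9 ± 298 in 3-day and 7-day arrays (SD, n = 4 each). It was higher by 1.11 on the log2 scale (adjusted p = 0.00775 from limma) and passed with any 1 array left out. The others higher were DPP4 (1.21, adjusted p = 0.0448), SMARCA1 (0.61, adjusted p = 0.0199) and the granin SCG2 (0.53, adjusted p = 0.0364). LOXL4 (-1.39, adjusted p = 0.00970) and FAP (-0.99, adjusted p = 0.0278) were lower, and FAP is also on the fibroblast list. DPP4 and SCG2 did not pass when any array but the fourth 3-day array was left out, FAP when any but the first 3-day array was, and SMARCA1 without the second 3-day array or the first 7-day array. GCG, the glucagon gene, had intensities of 27308 to 30272 in 3-day arrays and 20250.0 to 34489.7 in 7-day arrays and did not pass (log2 difference -0.19, adjusted p = 0.491).

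Of 6 beta cell genes, 1 was higher by limma, PCSK1, which encodes the other prohormone convertase (0.59, adjusted p = 0.0217), and it did not pass without 3-day array 1 or 3 or 7-day array 1 or 2 (adjusted p up to 0.0635). INS had a difference of -0.07 (adjusted p = 0.795). Of 4 delta and PP cell genes 0 passed by limma, also at an unadjusted p under 0.05, or by the methods' t-test, and SST and PPY had differences of 0.08 (adjusted p = 0.669) and 0.19 (adjusted p = 0.466). INS read 19881 to 29628, SST 26023 to 33852 and PPY 16863 to 27968 over the 8 arrays, where the highest intensity of any probe set was 41079.3. Whether the hormone probe sets still respond in proportion at such intensities was not tested.

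**Figure D5:**
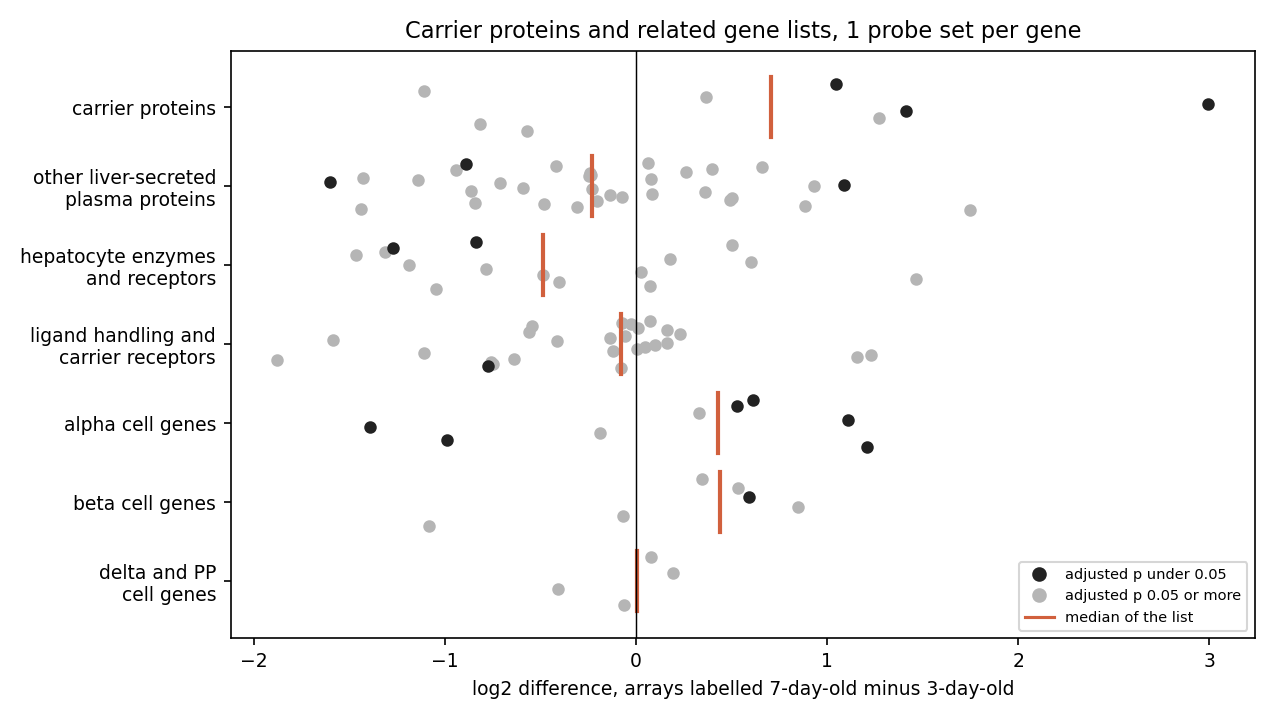
The log2 difference, 7-day minus 3-day (horizontal axis), of each tested gene of the carrier proteins and of 6 related lists, 1 probe set per gene. TF is shown by probe set A, so TF probe set B, which was lower, is not in this figure. Bars are the medians of the lists and dark points the genes with an adjusted p under 0.05. The median of the other liver-secreted plasma proteins lies at -0.23 and that of the alpha cell genes at 0.43.

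The genes whose profile over the 8 arrays was most like that of GC were RAB26, a GTPase of secretory granules, DUSP9, GPR160 and CITED1, among 6544 genes compared. Likeness was the root mean square of the difference between log2 profiles, each centred on its own mean, and was 0.195, 0.203, 0.215 and 0.220 in that order. RAB26 had intensities of 1824 to 2806 in 3-day arrays and 4479 to 5508 in 7-day arrays. The genes most like TTR were MTMR7 (0.151), CAPNS1 (0.168), GPX3 (0.192) and GNAI1 (0.194). GPX3, the plasma glutathione peroxidase, was higher by 0.93 on the log2 scale (adjusted p = 0.0392 from limma), and MTMR7 differed by 0.86 (adjusted p = 0.0598). All these genes were picked for profiles like those of GC and TTR, which were higher in the 7-day arrays. Their differences between the labels thus follow from the choice, and the p-values are a description and no support.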

How the data were processed

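The authors deposited 1 table of linear intensities, with 24123 probe sets in rows, scaled so that the mean without the outermost 2% on either side is equal between arrays. No software for this summary is given in the sources used here. The normalization to the median of a probe set that the methods describe does not show in the values. RNA was amplified, with an additional round for samples of low yield that the methods do not name, so this round was not tested.

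Arrays were grouped by their deposited ages. Intensities were floored at 1 and put on the log2 scale, 124 control probe sets were left out, and the 21574 probe sets that reached, in any array, that array's 20th percentile were fitted in limma 3.58.1 (R 4.3.3) with no covariates. The fit was first tested on simulated data. Of the probe sets, 10069 had 1 symbol in the platform annotation. The members and gene lists were chosen with earlier results of these data known. Every member was named, of a related list up to 6 called genes (the brightest 2 where none was called), of a marker list the brightest 2, and the 4 profiles nearest to GC and TTR. Alternatives were other filters, tests, variance models, scalings, weights, offsets and floors, the mean over a gene's probe sets, a replicate block and leaving out arrays. The methods' t-test is unpaired on log2 intensities, adjusted likewise. Other steps used Python 3.11.15 with pandas 2.3.3.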

Additional observations from a re-analysis of the deposited data

Results flagged for a closer look

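In 2 of 22 sets of 4 arrays of 1 label, 1 array lay far from the other 3 by Dixon's test at 95% on log2 intensities. This test picks about 1 in 20 sets by chance. The gaps below are those of the log2 values, and on the linear intensities printed beside them they are a smaller part of the range. The AMBP intensity of the fourth 7-day array was 133.5, against 252 to 287 in the other 3. Its gap was 0.8317 of the whole range on the log2 scale, where the critical value is 0.829. The ALB intensity of the third 3-day array was 9.38, against 41.9 to 54.1 in the other 3, and its gap was 0.8541 of the range on the log2 scale.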

How the results depend on the processing

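No member probe set changed sign under any alternative. GC and TF probe set B passed under every alternative except the replicate block, and RBP2 did not enter the stricter filter. TTR did not pass without a filter (adjusted p = 0.0570) or by the methods' t-test (0.0755), which called 2125 probe sets in all. AMBP passed with an intensity trend (0.0123), array quality weights (0.0374), an offset of 16 (0.0373) and the added floor (0.0323), and TF probe set A with the stricter filter (0.0247) and array weights (0.0494), which made 2 member probe sets lower. Array pairs of equal replicate number had residual correlations of -0.0135 to 0.00487, so that the numbers do not pair the samples, and no array correlated best with its own number. With the replicate block 0 member probe sets were higher and 0 lower (GC at adjusted p = 0.0576), and 0 of all probe sets passed in limma (5264 at an unadjusted p under 0.05) or in any related list. The trend raised the 2305 probe sets called to 3491.

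Of the other liver-secreted proteins 0 were higher without a filter, with the stricter filter, the t-test, the trend, the floor and the mean over probe sets, and 4 were lower with the stricter filter and the trend. Of the hepatocyte genes 1 was lower with the stricter filter and the t-test and 1 higher with the trend. Of the ligand genes 2 were lower with the stricter filter, the trend and quantile normalization and 3 with the floor and the mean. Of the alpha cell genes 1 was lower with the stricter filter, and of the beta cell genes 2 were higher with the trend, weights, offset and floor and 1 was lower with the trend and floor. With 1 array left out, members higher ranged from 2 to 3 and lower from 1 to 2, all probe sets called from 1020.0 (without the second 7-day array) to 1877, other liver proteins higher from 0 to 1 and lower from 1 to 4, hepatocyte genes lower from 0 to 3, ligand genes lower from 1 to 2, alpha cell genes higher from 1 to 4 and lower from 1 to 2, and beta cell genes higher from 0 to 1 and lower from 0 to 1. The causes were not tested. RBP2, ALB and HP are limited by signal near background.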

Other observations

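A further 2 probe sets list TF together with a second symbol and entered no comparison. Their intensities over the 8 arrays were 23.7 to 91.9 and 7.67 to 28.8.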
